A study of Homo sapiens with 8 samples.

Results

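The wildtype SF3B1 degron experiment in MEL202 cells compares 1 library without Shld for 2 days with 1 library that kept Shld. MEL202 is a human uveal melanoma cell line. The pair was taken by its labels and makes up 2 of the 8 libraries of the series. Its transcript levels were read over 8601 named genes whose mean over the 8 libraries was at least 5, out of 32087 loci in the deposited table. In this line the labels name a degron (a destabilising domain, DD) specific for wildtype SF3B1, and the table's column name describes it as knocked in; no change to the mutant SF3B1 allele is named, so every comparison within the pair is between cells of the same genotype.

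The other 6 libraries come from parental cells, from a knockout line for mutant SF3B1 and from a line whose degron sits on mutant SF3B1, each also with 1 library with and 1 without Shld. Parental cells carry no degron by their labels, so their pair serves here as the background spread. For the knockout line the labels give 2 days and no degron, whereas the table's column names add the degron on wildtype SF3B1 and 4 days without Shld; it is shown beside the wildtype degron pair with that doubt attached. For the parental library without Shld the column name likewise says 4 days where the label gives no time, so the background pair may span a longer time than the withdrawal it is set against. Each line is listed under a clone tag, the number of clones is not given, and separate cultures are not stated, so a p-value speaks only of the spread between libraries.

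SF3B1 is the largest subunit of the SF3b complex, the part of the U2 small nuclear ribonucleoprotein that holds the branch point of an intron while the spliceosome assembles. Cells with a heterozygous SF3B1 hotspot mutation splice most introns normally but use cryptic 3′ splice sites in some transcripts, and they still need the wildtype protein. A destabilising domain sends the protein fused to it to the proteasome unless the small ligand Shld is bound, so withdrawal acts on the protein and not on the transcript. SF3B1 protein was not measured in these files.

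Depth and composition were close within the pair. The rescaled FPKM values (fragments per length and library size, set by the authors so that the 75th percentile of every library is 10) summed to 762679 with Shld and 765737 without it, and from 814936 to 961994 in the other 6 libraries. The share of RPL and RPS transcripts was 13.3% with Shld and 12.9% without in the wildtype degron pair. In the parental pair it shifted more, from 22.5% to 18.9%, and in the other lines it lay between 17.8% and 20.4%. The smallest values imply 0.914 times as many fragments per unit without Shld as with it. Of 20 melanocyte genes in the table, 1 (BCL2A1) was under 1 in all 8 libraries, and the others were present in each. The list summed to 18616 with Shld and 17228 without, led by PMEL (7945 and 7156) and TYRP1 (4881 and 4472). All 6 epithelial markers in the table were under 1 in all 8 libraries, as were 3 of 4 endothelial and 3 of 4 fibroblast markers. The exception among fibroblast markers, the matrix proteoglycan LUM, read 12.9 with Shld and 10.8 without, and that among endothelial markers, the receptor KDR, 0.273 and 0.252. Of 4 leukocyte markers found, 2 were at 0 in all 8 libraries, PTPRC read 0.405 and 0.644, and CD68, a lysosomal protein known from macrophages, read 672 and 639 (parental cells, 743 and 769).

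The SF3B1 transcript stood at nearly the same level on both sides. It read 188 with Shld and 201 without, against 266 and 240 in parental cells, 248 and 252 in the mutant degron line and 158 and 138 in the knockout line. The difference in the pair was 0.09 ± 0.21 (log2 of value + 1, standard error of the limma model; adjusted p = 1.0), so the level of the transcript does not show whether the protein was lost. Among genes of the SF3a, SF3b and other U2 proteins, 14 of 26 tested genes were above 0, the median was 0.01 (parental pair, 10 of 26 and -0.08), and none was called. This median changes sign to -0.01 with quantile normalization. SF3B3, the SF3b scaffold next to SF3B1, had the highest difference in the list: 52.3 with Shld and 75.9 without, against 35.2 and 38.6 in parental cells, 47.4 and 45.6 in the mutant degron line and 59.8 and 72.7 in the knockout line. At 0.53 ± 0.17 it did not pass limma's test (adjusted p = 0.54). The U2 cofactor PUF60 read 7.60 and 4.29, a smaller drop than the 11.5 and 4.02 of the parental cells.

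Across all genes the differences spread about as widely as in the untagged control, whose own composition shifted between its libraries. The differences between the libraries without and with Shld had a standard deviation across genes of 0.18 on the log2 scale, against 0.20 in the parental pair, 0.15 in the mutant degron pair and 0.26 in that of the knockout line. After withdrawal 121 genes lay at least 0.5 apart (1.41%), 35 higher (0.407%) and 86 lower (1.0%) without Shld. The parental pair had 169 (1.96%), 29 higher (0.337%) and 140 lower (1.63%), the mutant degron pair 49 (0.57%; 0.453% higher and 0.116% lower) and the knockout pair 551 (6.41%; 2.42% higher and 3.99% lower). The wildtype degron pair thus held fewer genes this far below 0 than cells with no degron, and slightly more above it. Of 51 tested cytosolic ribosomal protein genes, 11 were at least 0.5 lower in the parental pair and 0 in the wildtype degron pair. How much the parental shift in composition adds to the parental spread was not tested.

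**Figure D1:**
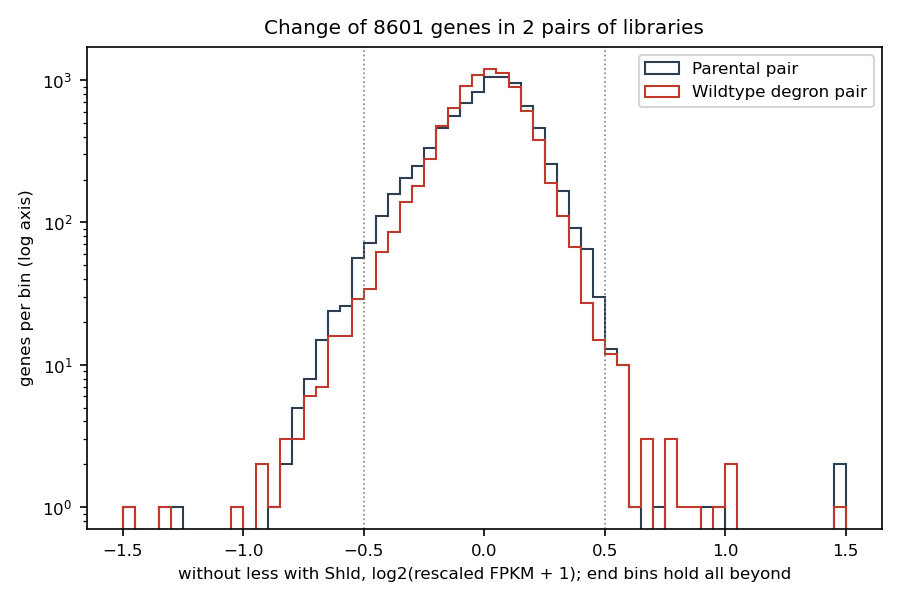
Number of genes (y axis, log scale) by the difference without less with Shld on the log2(rescaled FPKM + 1) scale (x axis) in the wildtype degron and the parental pair, with dotted lines at 0.5 either way. Beyond the lower dotted line lie 86 genes of the wildtype degron and 140 of the parental pair, and beyond the upper one 35 and 29.

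Most of the genes beyond 0.5 were not beyond it in parental cells, though a larger share was than among all genes. Of the 121, 8 were at least 0.5 apart in the same direction in the parental pair and 5 in the opposite direction. Among all genes 1.96% were that far apart in the parental pair, in either direction. For 117 the parental difference was smaller, which picking genes by a large wildtype degron difference favours. Of the 86 lower genes, 36 were also at least 0.5 lower in the knockout pair (all genes, 3.99%). None was that much lower in the mutant degron pair (all genes, 0.116%). In that pair 71 of the 86 were above 0, against 47.2% of all genes. Of the 35 higher genes, 12 were at least 0.5 higher in the knockout pair (all genes, 2.42%) and 2 in the mutant degron pair (all genes, 0.453%). In the mutant degron pair 26 of the 35 were below 0, where 47.2% of all genes were above it. Levels before withdrawal already differed from parental cells: limma called 3110 genes (36.2%) between the wildtype degron line with Shld and the parental mean. Of the 86 lower genes, 47 stood above both parental libraries with Shld and 72 below both without Shld. The 47 share the library with Shld with the withdrawal difference, and the 72 share the library without it. Picking genes by a large fall therefore favours both counts. The matching shares over all genes were not counted, so no conclusion is drawn from the 47 and the 72.

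limma called 8 genes between the libraries (0.093%), 3 higher and 5 lower without Shld, with 341 at an unadjusted p below 0.05 (110 higher and 231 lower). In bulk RNA, fewer cells with a transcript and less transcript per cell cannot be told apart. The spread comes from 1 parental pair (1 residual and 23.56 prior degrees of freedom), and with the mutant degron pair as the spread, or added to it, only NSUN4 is called. With each library scaled to the same median, or with quantile normalization, 3 are called: NSUN4, PCNA-AS1 and HIST1H1C, and with all loci in place of named genes 13 are called, 9 higher and 4 lower, none of them among the 8. The 8 are the linker histone gene HIST1H1C, the zinc finger gene ZNF358, the G protein gamma subunit GNG7, the calcium-binding copine CPNE7, the long noncoding RNA LINC00152, the hedgehog transcription factor GLI2, the mitochondrial RNA methyltransferase NSUN4 and the antisense transcript PCNA-AS1.

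HIST1H1C had the clearest fall. It read 53.1 with Shld and 20.8 without, against 36.4 and 34.1 in parental cells, 33.9 and 47.5 in the mutant degron line and 27.6 and 10.4 in the knockout line. The wildtype degron library with Shld was the highest of the 8, and both low values belonged to libraries without Shld in lines whose column names carry the wildtype degron. It fell by 1.31 ± 0.17 (limma, adjusted p = 0.000102). ZNF358, whose targets are little known, read 17.2 and 7.80, and in parental cells 13.8 and 11.6. In the mutant degron line it read 5.74 and 4.91 and in the knockout line 6.75 and 7.25, so that the wildtype degron level without Shld came near that of those lines. It fell by 1.05 ± 0.18 (limma, adjusted p = 0.0137).

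GNG7, which carries signals from receptors as part of a G protein, read 16.6 with Shld and 8.31 without, with 20.3 and 17.9 in parental cells, 19.1 and 18.3 in the mutant degron line and 10.3 and 6.80 in the knockout line (difference -0.92 ± 0.17; limma, adjusted p = 0.0228). CPNE7 read 22.9 and 11.6, against 29.8 and 24.1, 18.6 and 23.8, and 36.5 and 21.1 in the same order (difference -0.92 ± 0.17; limma, adjusted p = 0.0251). For both genes the library without Shld lay below the parental and mutant degron libraries, and the knockout line was lower without Shld too.

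GLI2, a transcription factor that activates hedgehog target genes, read 2.67 with Shld and 6.58 without. In parental cells it read 3.36 and 3.04, in the mutant degron line 10.9 and 7.17 and in the knockout line 7.06 and 9.52. The wildtype degron line thus started at the parental level and ended just under the levels of the other edited lines, a rise of 1.05 ± 0.19 (limma, adjusted p = 0.0185). The mean of GLI2 over the 8 libraries was 6.29, which passed the filter of 5 only through the mutant degron and knockout lines. LINC00152 read 4.69 and 10.4, against 31.5 and 22.1 in parental cells, 12.3 and 11.3 in the mutant degron line and 9.39 and 15.2 in the knockout line. It rose by 1.00 ± 0.20 (limma, adjusted p = 0.0316) from a level that differed from the parental mean by -2.27 on the log2 scale, the lowest of the 8 libraries.

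The other 2 calls rest on values at or near 0, which can be failed estimates. NSUN4 read 6.27 with Shld and 0.000129 without, and between 4.74 and 9.50 in the other 6 libraries (difference -2.86 ± 0.21; limma, adjusted p = 6.88e-09). PCNA-AS1 read 0.203 and 33.1, and it was under 0.01 with Shld and between 2.74 and 8.22 without Shld in each of the other lines. It overlaps PCNA, the replication clamp, which read 236 and 211, and strand is not stated, so reads of the pair may have been shared out between them. No further weight is put on these genes.

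**Figure D2:**
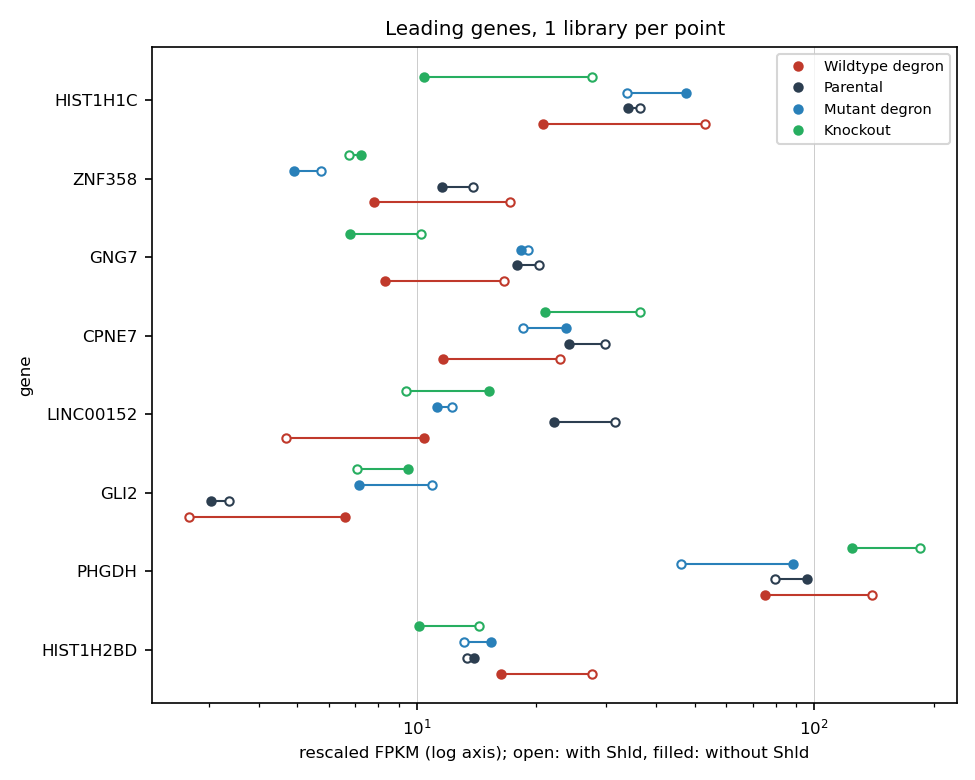
Levels (x axis, rescaled FPKM, log scale) of 6 called genes, PHGDH and HIST1H2BD (y axis) with Shld (open) and without it (filled) in each of the 4 lines, coloured by line, 1 library per point. HIST1H1C is lowest in the wildtype degron and knockout libraries without Shld, at 20.8 and 10.4, and GLI2 in the wildtype degron line goes from 2.67 to 6.58.

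Histone genes were mostly lower without Shld, and 1 of them was called. Linker and core histones package DNA, and most of their genes are made in S phase as transcripts without a poly(A) tail, so a library of this kind may see only their polyadenylated part. Of the 28 listed genes found, 7 passed the filter on low values, and 1 of these was called, HIST1H1C. HIST1H2BD, an H2B gene that can be polyadenylated, read 27.6 with Shld and 16.3 without, against 13.4 and 13.9 in parental cells, 13.2 and 15.4 in the mutant degron line and 14.4 and 10.2 in the knockout line (difference -0.73 ± 0.17; limma, adjusted p = 0.13). Its level with Shld was above all other 7 libraries, and without Shld it still lay above both parental libraries. HIST2H2AC was the only one of the 7 above 0, at 10.8 and 13.3, and in the parental pair 2 of the 7 were above 0. HIST3H2BB, at 30.4 and 22.2 (parental cells, 59.4 and 47.1), and HIST3H2A, at 65.6 and 52.3 (parental cells, 88.5 and 74.7), were lower in both pairs. The replacement linker histone gene H1F0, which does not depend on S phase, read 185 and 174.

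Several histone genes under the filter showed the same order of values. HIST2H2BE read 7.65 with Shld and 2.52 without (parental cells, 3.02 and 3.52), HIST1H4H read 6.17 and 2.66 (parental cells, 3.68 and 2.83) and HIST1H2BC read 4.31 and 1.38 (parental cells, 2.60 and 2.38). HIST1H2AE read 4.36 and 1.77 (parental cells, 4.22 and 3.04). HIST1H3E, at 4.53 and 4.91, and HIST1H2BN, at 2.40 and 2.58, were level. These genes were chosen after their values were seen, and they were not tested. Over the 7 tested genes the median was -0.32 in the wildtype degron pair, -0.09 in the parental, 0.09 in the mutant degron and -0.46 in the knockout pair. All 6 tested variant histone genes, which have introns or poly(A) tails, were below 0 as well (median -0.22, parental 0.06), led by H2AFX, the histone phosphorylated at DNA breaks, at 49.9 and 37.5 (parental cells, 50.9 and 52.6). None of the 6 was called. The factors that cut histone transcripts, such as CASP8AP2 and ERI1, had a median of 0.04 over 9 genes, or -0.04 once the parental difference is subtracted, and none was called.

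The promoter of HIST1H1C is shown because this gene had the clearest fall. Its 250 bases before the start lie at chr6:26056471-26056720 on the minus strand of GRCh38.p14, from RefSeq. Capitals mark the H1 box AAACACA, an element of linker histone promoters, and the CCAAT box, each searched on both strands (TGTGTTT is the H1 box read from the other strand).
HIST1H1C: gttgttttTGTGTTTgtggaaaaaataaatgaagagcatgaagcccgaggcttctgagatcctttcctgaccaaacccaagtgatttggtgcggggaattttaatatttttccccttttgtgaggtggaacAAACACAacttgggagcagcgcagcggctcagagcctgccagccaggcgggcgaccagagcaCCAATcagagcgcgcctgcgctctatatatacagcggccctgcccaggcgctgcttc
The H1 box was found in 1 of the 6 tested histone genes with a promoter in the table, HIST1H1C itself, and in 5.95% of 27305 genes. CCAAT was found in 5 of the 6 and in 37.0% of all genes. A match of letters is a description and no evidence of binding.

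Genes of the cell cycle were lower by small amounts in nearly every member. Of the 46 tested G1/S and replication genes 6 were above 0 (all genes, 53.8%; parental pair, 27 of 46 and 55.8% of all genes), and the median was -0.16, against 0.03 in the parental, -0.03 in the mutant degron and -0.50 in the knockout pair. Of the 43 tested G2/M and mitotic genes 3 were above 0 (parental pair, 19 of 43), with a median of -0.17 against -0.06, -0.05 and -0.60. No member of either list was called, and 3 and 2 members had an unadjusted p below 0.05.

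POLA1, the catalytic subunit of the primase-polymerase complex, read 16.8 with Shld and 11.0 without (parental cells, 11.8 and 13.9). CDC45, part of the replicative helicase, read 29.2 and 21.5 (parental cells, 35.1 and 33.9). The kinetochore gene CENPM read 36.3 and 26.5 (parental cells, 39.6 and 40.6). CENPA, the histone H3 variant that marks centromeres, read 33.2 and 25.5, but its parental libraries differed too, at 49.6 and 41.4. The CDK inhibitor CDKN2C read 15.7 and 11.1 (parental cells, 13.5 and 16.3), within a list of cyclins and CDK inhibitors that had 7 of 17 members above 0 (parental pair, 14 of 17) and a median of -0.01 (parental, 0.09).

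The promoter of CENPA is shown as that of the mitotic gene with the largest difference among those with a CHR element (TTTGAA, searched on both strands), the motif bound by the DREAM complex that represses mitotic genes outside their phase. Its 250 bases before the start lie at chr2:26785806-26786055 on the plus strand of GRCh38.p14, from RefSeq, with the CHR element in capitals.
CENPA: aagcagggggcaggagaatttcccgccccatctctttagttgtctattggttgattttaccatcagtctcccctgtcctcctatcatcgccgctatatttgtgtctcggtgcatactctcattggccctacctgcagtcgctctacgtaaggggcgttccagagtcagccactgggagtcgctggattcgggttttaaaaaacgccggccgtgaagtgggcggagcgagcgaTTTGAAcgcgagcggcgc
Of the 35 tested G2/M genes with a known promoter, 19 held TTTGAA, against 16.1% of 27305 genes, and 30 held CCAAT, against 37.0%. These shares describe the list and do not depend on the libraries.

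DNA repair genes of the Fanconi and homologous recombination pathways, many of them made in S phase, were mostly lower: 2 of 21 tested members were above 0 (parental pair, 12 of 21), and the median was -0.20, against 0.03 in the parental, -0.04 in the mutant degron and -0.48 in the knockout pair. None was called. WRN, the helicase of Werner syndrome, read 32.2 with Shld and 20.6 without (parental cells, 29.4 and 24.8). RECQL, a related helicase, read 11.7 and 7.67 (parental cells, 8.77 and 8.03), and FANCD2, the protein that is ubiquitinated at crosslinks, read 25.1 and 18.3 (parental cells, 28.5 and 26.4).

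**Figure D3:**
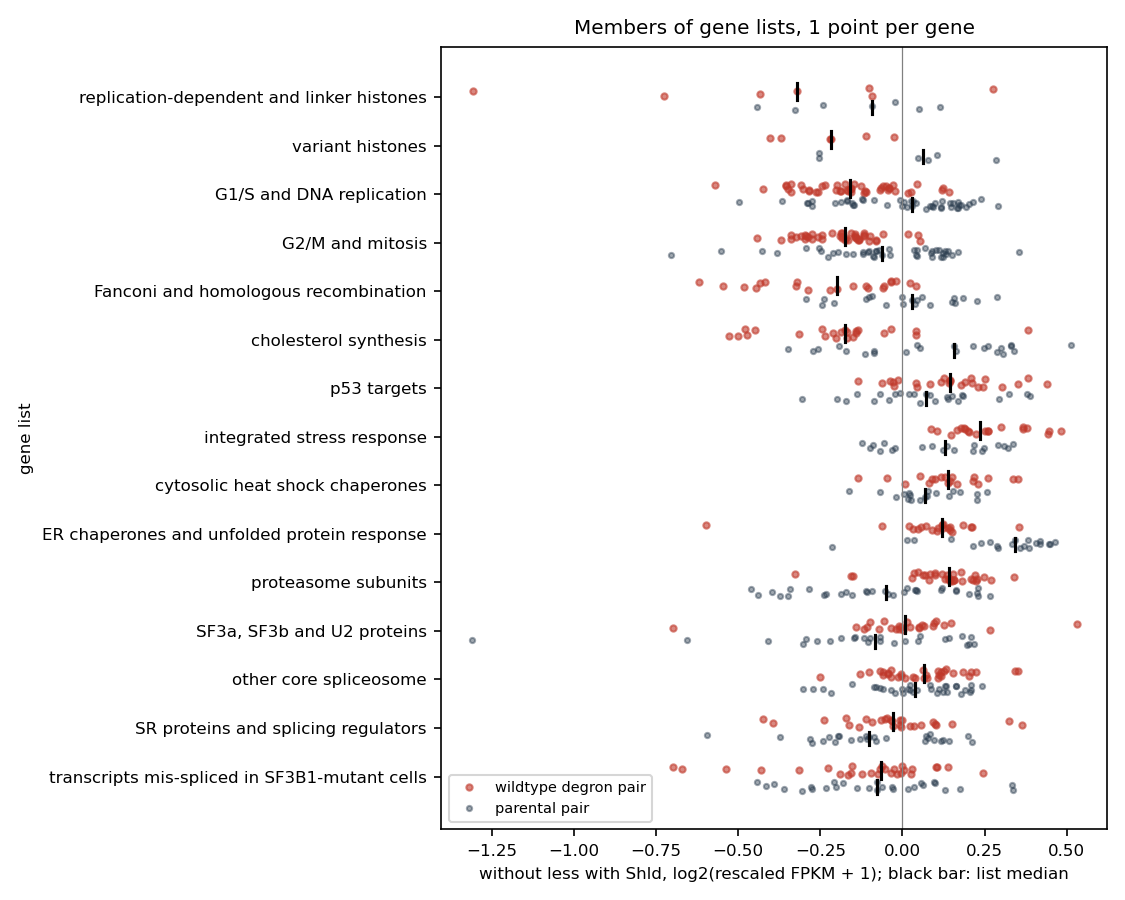
Difference without less with Shld (x axis, log2(rescaled FPKM + 1)) of the tested members of 15 gene lists (y axis), 1 point per gene, in the wildtype degron and the parental pair, with a black bar at each median. The wildtype degron medians for replication, mitosis, DNA repair and cholesterol synthesis lie between -0.20 and -0.16. The cholesterol synthesis list includes fatty acid synthesis genes. For the integrated stress response the wildtype degron median is at 0.24.

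Targets of the integrated stress response, the program that ATF4 drives when amino acids run short or proteins misfold, were higher without Shld in all 20 tested members. Their median was 0.24, against 0.13 in the parental pair with 13 of 20 above 0, -0.06 in the mutant degron and 0.34 in the knockout pair. None was called, and 4 had an unadjusted p below 0.05. Serine synthesis genes, which ATF4 also controls, are a separate list given below, and PHGDH among them was lower. The lists were chosen with earlier results of these data known. NUPR1, a stress-induced chromatin protein, read 149 with Shld and 209 without (parental cells, 172 and 183). CHAC1, which breaks down glutathione, read 31.7 and 43.5 (parental cells, 33.8 and 31.5). The tryptophan-tRNA ligase WARS read 132 and 179 (parental cells, 122 and 142), and DDIT3, the transcription factor CHOP, read 58.5 and 75.6 (parental cells, 83.7 and 82.0).

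The promoter of CHAC1 is shown as that of the member with the largest difference among those with a CARE element (TGATGNAA, searched on both strands), the composite site of C/EBP and ATF factors. Its 250 bases before the start lie at chr15:40953221-40953470 on the plus strand of GRCh38.p14, from RefSeq, with the element in capitals as read from the other strand.
CHAC1: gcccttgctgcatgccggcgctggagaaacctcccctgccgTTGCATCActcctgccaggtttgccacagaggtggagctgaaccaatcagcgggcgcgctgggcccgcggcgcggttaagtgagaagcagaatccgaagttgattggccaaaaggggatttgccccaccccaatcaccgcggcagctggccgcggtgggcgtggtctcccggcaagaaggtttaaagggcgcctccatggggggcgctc
The element was found in 2 of the 17 tested members with a promoter in the table and in 3.89% of 27305 genes. Most members therefore held no such letters in this window.

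Serine synthesis, which ATF4 also controls, was uneven. PHGDH, its first enzyme, read 139 with Shld and 75.03 without, against 79.7 and 95.7 in parental cells, 46.2 and 88.5 in the mutant degron line and 185 and 125 in the knockout line. Its level was high with Shld (0.67 above the parental mean; limma, adjusted p = 0.0031) and just under the parental libraries without it. The difference in the pair was -0.89 ± 0.19 (limma, adjusted p = 0.0867). PSAT1, the next enzyme, read 101 and 133 (parental cells, 144 and 137), so the enzymes of consecutive steps stood in opposite order. MTHFD1, of the folate cycle, read 68.4 and 53.7 (parental cells, 54.8 and 56.4), and MTHFD2, its mitochondrial relative, 71.3 and 87.9 (parental cells, 118 and 112). Of 13 tested members 8 were above 0 in either pair, with a median of 0.03, which becomes -0.08 after the parental difference is subtracted.

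p53 targets were higher in 19 of 25 tested members (parental pair, 16 of 25), and the median was 0.14, against 0.07 in the parental, 0.02 in the mutant degron and 0.53 in the knockout pair. None was called. CDKN1A, the CDK inhibitor p21, read 118 with Shld and 155 without, while it read 98.9 and 109 in parental cells, 94.3 and 96.5 in the mutant degron line and 88.9 and 296 in the knockout line. GADD45A, a growth arrest gene, read 11.1 and 15.3 (parental cells, 10.3 and 12.9). GDF15, a secreted stress cytokine, read 931 and 1187, with 511 and 640 in parental cells, a difference close in size on the log2 scale. Apoptosis regulators had 11 of 15 members above 0 (parental pair, 9 of 15) and a median of 0.13 (parental, 0.05), with none called.

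Hedgehog signalling was examined because GLI2 was called. The pathway runs from the receptor PTCH1 through SMO and the repressor SUFU to the GLI transcription factors. Of 9 tested members 6 were above 0 in either pair, the median was 0.03 (parental pair, 0.06), and GLI2 was the called one. SUFU read 10.1 with Shld and 12.2 without (parental cells, 8.32 and 9.47), and SMO 36.2 and 33.3 (parental cells, 24.2 and 28.2). Further members lay under the filter and were not tested. The target genes GLI1, at 1.90 and 1.19 (parental cells, 1.34 and 1.35), and PTCH1, at 3.27 and 4.63 (parental cells, 1.504 and 1.833), stood in opposite order, and GLI3 read 4.12 and 5.70 (parental cells, 3.07 and 2.94).

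Cholesterol synthesis genes, which SREBF2 turns on when sterols are low, were listed together with fatty acid synthesis genes such as ACACA and FASN. In this list 20 of 23 tested members were lower, while 15 of 23 were above 0 in the parental pair. The median was -0.17 in the wildtype degron pair against 0.16 in the parental, 0.12 in the mutant degron and -0.25 in the knockout pair. None was called, and 5 had an unadjusted p below 0.05, 1 of them higher. LSS, which closes the sterol rings, read 80.1 with Shld and 55.3 without (parental cells, 73.9 and 68.1). INSIG1, which retains the SREBP activator in the endoplasmic reticulum, read 111 and 79.4 (parental cells, 114 and 114), and ACACA, of fatty acid synthesis, 55.2 and 38.8 (parental cells, 32.8 and 33.9). HSD17B7 went the other way, at 19.4 and 25.5 (parental cells, 39.8 and 31.0). A sterol response element, TCACNCCAC on either strand, was found in 1 of 18 members with a promoter in the table and in 1.09% of 27305 genes.

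Protein quality control genes were mostly above 0, and among them the proteasome list differed from its parental count. Subunits of the proteasome, the protease that takes up proteins with an unbound destabilising domain, were above 0 in 29 of 32 tested members (parental pair, 14 of 32; mutant degron pair, 3 of 32; knockout pair, 23 of 32), with a median of 0.14 against -0.05, -0.12 and 0.10. Proteasome genes started from a lower level: the wildtype degron library with Shld less the parental mean had a list median of -0.36 (all genes, 0.01). Cytosolic heat shock chaperones were above 0 in 17 of 19 (parental pair, 16 of 19), with a median of 0.14 (parental, 0.07). Chaperones of the endoplasmic reticulum were above 0 in 19 of 21 (parental pair, 20 of 21), with a median of 0.12, but the parental median was 0.34, and the difference between the pairs has a median of -0.27. DNAJC3, an inhibitor of the stress kinase PERK, was the lowest of them at 11.0 and 6.95 (parental cells, 5.49 and 7.23). None of these genes was called.

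Other splicing genes lay on both sides of 0. Core spliceosome proteins outside SF3 had 21 of 34 members above 0 (parental pair, 22 of 34) and a median of 0.06 (parental, 0.04), and SLU7, a second-step factor, read 20.6 with Shld and 26.5 without (parental cells, 19.01 and 22.10). SR proteins and splicing regulators had 9 of 27 above 0 (parental pair, 10 of 27), with a median of -0.03, or 0.06 after the parental difference is subtracted. TRA2A, an exon enhancer-binding protein, read 38.7 and 50.1 (parental cells, 51.4 and 48.4). Nonsense-mediated decay and exon junction genes had 6 of 15 above 0 (parental pair, 11 of 15) and a median of -0.02 (parental, 0.06), with UPF3B, which links the junction to decay, at 6.93 and 4.75 (parental cells, 5.48 and 5.85). No gene of these lists was called.

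Transcripts known to be mis-spliced with mutant SF3B1 were measured here only as gene totals, since the table holds no junctions. Of 28 tested genes 7 were above 0 (parental pair, 10 of 28), the median was -0.07 (parental pair, -0.08), and none was called in the wildtype degron pair. PPP2R5A, a phosphatase subunit, read 86.2 with Shld and 53.8 without (parental cells, 68.6 and 59.2), and PPOX, of heme synthesis, 14.8 and 9.87 (parental cells, 14.7 and 12.6).

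Since SF3B1 acts on introns, the differences were also laid out by exon number. GENCODE 29 gave a count for 8433 of the 8601 genes (98.0%). The median was 0.003 over 161 genes with 1 exon, 0.02 over 1266 with 2 to 4, 0.03 over 2830 with 5 to 9, 0.01 over 2878 with 10 to 19, -0.01 over 892 with 20 to 29 and -0.04 over 406 with 30 or more. The parental medians were 0.03, -0.03, 0.01, 0.05, 0.06 and 0.05 in the same order. Over genes with 30 or more exons the mutant degron median was -0.05 and the knockout median 0.04. Across genes, which share libraries and are not independent replicates, Spearman's rho of the difference with exon number was -0.10 in the wildtype degron and 0.18 in the parental pair. It was -0.08 in the mutant degron and 0.01 in the knockout pair. With transcript length rho was -0.01 in the wildtype degron, 0.27 in the parental, -0.25 in the mutant degron and 0.13 in the knockout pair. All bin medians of the wildtype degron pair thus lay within a few hundredths of 0 on the log2 scale. A list of genes with a single exon, such as JUNB and CEBPB, had 13 of 22 members above 0 (parental pair, 10 of 22) and a median of 0.05, or -0.00 after the parental difference is subtracted, with none called.

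Signalling and identity genes gave a few single values. Immediate early genes were above 0 in 13 of 16 tested members (parental pair, 8 of 16; median 0.14 against 0.03), and EGR3 read 6.96 with Shld and 11.8 without (parental cells, 4.64 and 7.08). MAPK output genes were above 0 in 6 of 8 (parental pair, 5 of 8; median 0.14 against 0.07), led by the ERK phosphatase DUSP6 at 68.9 and 97.4 (parental cells, 68.7 and 71.9). Melanocyte genes were above 0 in 8 of 19 (parental pair, 12 of 19; median -0.05 against 0.06). MITF, their master regulator, read 187 and 203 (parental cells, 162 and 184). The pigment enzyme DCT read 16.7 and 10.4 (parental cells, 12.9 and 10.8), GPR143, a melanosome receptor, 194 and 136 (parental cells, 89.3 and 111), and the calcium-binding S100B 62.9 and 102 (parental cells, 88.8 and 70.1). None of these was called.

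Beside the called genes, the 15 largest differences in each direction with a smaller parental difference held the Groucho-family corepressor TLE1, at 5.70 with Shld and 10.3 without (parental cells, 5.14 and 6.19), and the raft protein RFTN1, at 3.46 and 7.03 (parental cells, 3.53 and 4.36). The selenoprotein SELM read 4.997 and 10.1, but 12.8 and 8.23 in parental cells, so its level without Shld lay within the parental range. On the lower side KIAA0196, the WASH complex subunit strumpellin, read 66.2 and 39.5, and its parental libraries stood at 38.9 and 40.5. The peroxisomal genes HACL1, at 6.24 and 3.14 (parental cells, 6.68 and 5.83), and PEX3, at 5.08 and 2.73 (parental cells, 7.13 and 4.78), were both low without Shld. None of the 6 passed limma's test within the pair.

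The difference between the lines' withdrawals was tested in the same fit. Against the mutant degron line limma called 21 genes (0.244%), 4 with a higher and 17 with a lower change in the wildtype degron line. In 20 of them the changes had opposite signs, which picking genes by a large difference between the changes favours. How often the signs were opposite among all genes was not counted, so no conclusion is drawn from the 20. With all loci in place of named genes 27 are called, 18 higher and 9 lower, and 1 of them is among the 21. HIST1H1C differed by -1.79 ± 0.24 (adjusted p = 0.000288), PHGDH by -1.81 ± 0.27 (adjusted p = 0.00165) and GLI2 by 1.59 ± 0.27 (adjusted p = 0.00824), all by limma. PHGDH read 46.2 with Shld and 88.5 without in the mutant degron line, the opposite order to the wildtype degron line. The dystrophin gene DMD read 10.7 and 17.4 in the wildtype and 12.3 and 5.91 in the mutant degron line, and its difference was 1.60 ± 0.29 (limma, adjusted p = 0.0145), although its parental libraries also stood apart at 16.2 and 10.9. RECQL and CPNE7 were among the 17.

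Against the knockout line limma called 2 genes (0.0233%), NSUN4 and LOC390660, both with values at or near 0 in some library. For HIST1H1C the changes were alike in size, -1.31 and -1.33, and the difference between them was 0.02 ± 0.24. For CPNE7 the difference was -0.15 ± 0.25 and for GLI2 0.66 ± 0.27, neither called. The pairs share no library.

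**Figure D4:**
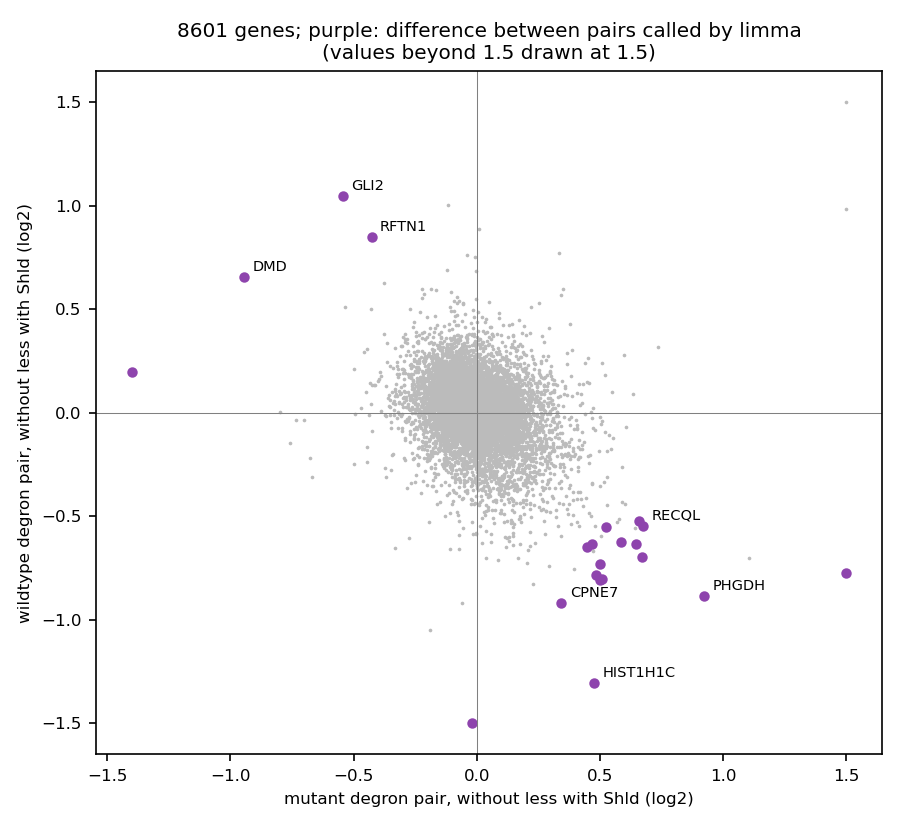
Difference without less with Shld of 8601 genes in the mutant degron pair (x axis) and the wildtype degron pair (y axis), both on the log2(rescaled FPKM + 1) scale, with the 21 genes whose changes differed by limma's test in purple and values beyond 1.5 drawn at 1.5. PHGDH and HIST1H1C lie low in the wildtype degron pair, at -0.89 and -1.31, and high in the mutant degron pair, at 0.92 and 0.48.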

How the data were processed

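Transcript levels were read from 1 deposited table of 32087 loci in 8 MEL202 libraries. Per the labels' protocols these were TruSeq libraries sequenced in pairs on a HiSeq2500, and the tools were TopHat and Cufflinks on build hg19, per the submitters' processing notes. Versions, annotation and strand: not given in the sources used here. FPKM-type values were deposited by the authors, rescaled to a 75th percentile of 10 per library. That FPKM was the input is inferred from Cufflinks and the values. They are not counts, so absolute depth is unknown.

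Columns were matched to samples by name. Of 21990 named loci, 8810 had a mean of at least 5; 146 small RNAs and 63 secondary loci of a symbol were left out. limma 3.58.1 (R 4.3.3) was fitted on log2(value + 1), which understates changes of low genes, with a mean-variance trend and Benjamini-Hochberg adjustment at 0.05. The parental pair shared 1 mean and gave the spread; each other library had its own coefficient and was assumed to vary like that pair. In a check on simulated data for this pair with 8601 genes, 91% of genes changed by 1 on the log2 scale were recovered. Of those changed by 2, 100% were recovered, with 6 false calls among the unchanged genes. The noise of every library was drawn from the fitted spread, so the check takes that assumption as given and cannot test it.

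The named genes were SF3B1, the called genes, the 15 largest differences each way among genes of at least 1 in all libraries with a smaller parental difference, up to 6 members of each of 35 lists (894 entries, 660 tested) with the largest differences, and the 5 largest called each way between lines; the text draws on these and, where it says so or gives a list's usual marker (MITF, PCNA, GLI1, PTCH1, GLI3, H1F0), on others chosen after their values were seen. Members and lists were chosen with earlier results of these data known. Alternatives covered pseudocount, filter, scaling, source of the spread, trend and loci. Promoters came from RefSeq (GRCh38.p14), and no coordinates of the deposited loci were used. The results of some list members are not reported here.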

Additional observations from a re-analysis of the deposited data

Results flagged for a closer look

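Differences between the withdrawal in the wildtype degron line and in another line passed limma's test of the difference itself for the genes below, each on the log2(value + 1) scale with 1 library per state. Against the mutant degron line, the change in the wildtype degron line was higher by 1.59 for GLI2, 1.28 for RFTN1 and 1.60 for DMD. It was lower for HIST1H1C (-1.79) and PHGDH (-1.81), which were lower without Shld in the wildtype and higher in the mutant degron line.

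The other genes had values at or near 0 in some library. NSUN4 was listed at 0.000129 in the wildtype degron library without Shld, and its change differed by -2.84 from that in the mutant degron line and by -2.78 from that in the knockout line. HLA-C, an antigen-presenting molecule, read 5.88 with Shld and 3.03 without in the wildtype degron line, while the mutant degron line gave 2.3e-05 and 17.5, a difference of -4.98. LOC390660, a locus of unknown role, read 11.3 and 13.2, against 10.9 and 3.50 in the mutant degron line (difference 1.60) and 4.55 and 0 in the knockout line (difference 2.67), and it was listed at 0 in both parental libraries, which supply its spread.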

How the results depend on the processing

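No paired analysis was possible because every group has 1 library, and leaving out a library removes a whole group or the spread. The count of 8 genes called by limma was 4 with a mean of at least 1 and without the mean-variance trend, 3 with quantile normalization and with median scaling, 1 with the spread from the parental and mutant degron pairs, from these and the knockout pair, or (chosen after seeing the data) from the mutant degron pair alone, 13 with all loci (9 higher, 4 lower) and 414 with no filter. The last 2 share none of the 8. The 21 genes called against the mutant degron line became 4 with a mean of at least 1, 3 with quantile normalization and with median scaling, 5 without the trend, 706 with no filter and 27 with all loci (18 higher, 9 lower, 1 shared). The 2 called against the knockout line became 4 and 5 with pseudocounts of 0.1 and 5, 6 and 9 with a mean of at least 1 and 10, 27 with all loci, 829 with no filter and 0 among genes of at least 1 in all 8 libraries, a filter chosen after seeing the data. The 121 genes at least 0.5 apart became 40 with a pseudocount of 5, 267 and 80 with a mean of at least 1 and 10, 373 with no filter, 205 with all loci, 497 less the parental change (307 higher, 190 lower) and 6 at a fold of 1. Over 98 alternative values the 8 called genes kept their call in 40 and lost it in 58. Among 409 values for 33 genes, most of them not called, 7 gained a call and none changed sign. Of the list medians 316 moved by less than their spread and 14 by more. The cause of these changes was not tested.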

Other observations

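Further gene groups were read in the wildtype degron pair, and none of their members was called. Interferon response genes were above 0 in all 10 tested members (parental pair, 7 of 10), with a median of 0.15 against 0.09. IFI6, an interferon-induced mitochondrial protein, read 34.1 with Shld and 43.5 without (parental cells, 24.5 and 26.7). MYC and ribosome biogenesis genes were above 0 in 5 of 18 (parental pair, 13 of 18), with a median of -0.06 against 0.14. The nucleolar protein NOP58 read 60.1 and 53.3 (parental cells, 74.6 and 73.8).

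Cytosolic ribosomal protein genes were above 0 in 16 of 51 members, with a median of -0.03, while in the parental pair 1 of 51 was above 0 and the median was -0.33; less the parental change the median is 0.31. Oxidative phosphorylation genes were above 0 in 21 of 33 (parental pair, 6 of 33; median 0.04 against -0.16). UQCRC2, a core protein of complex III, was the lowest of them at 118 and 83.0, and read 152 and 66.4 in the knockout line. Small nucleolar RNA host genes were above 0 in 4 of 6 (parental pair, 0 of 6; median 0.04 against -0.25). Glycolysis and hypoxia genes were above 0 in 12 of 19 (parental pair, 19 of 19), with a median of 0.03 against 0.19, or -0.17 less the parental change. PDK1, which turns pyruvate away from mitochondria, read 16.2 and 11.6 (parental cells, 16.3 and 17.6).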
